A study of Mus musculus with 6 samples.

Results

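The regions described here are the peaks that were called in both input libraries of control muscle: peaks of Ctrl input 1 on chromosomes 1 to 19 that shared 1 bp or more with a peak of Ctrl input 2. There were 289 such members among the 2999 Ctrl input 1 peaks on these chromosomes, and 47128 peaks were listed there over all 6 libraries. The study mapped histone marks by CUT&RUN, in which an antibody guides a nuclease that frees the DNA of nearby nucleosomes. The tissue was gastrocnemius, a calf muscle, of male C57BL/6 mice aged 4 weeks. CKO mice carried floxed Phf2 alleles together with Cre under the Acta1 promoter (Phf2 flox/flox;Acta1 Cre+), and Ctrl mice carried the same alleles without Cre (Phf2 flox/flox;Acta1 Cre-). Acta1 is skeletal muscle actin, so cells of the tissue other than muscle fibres are not targeted. CKO gave 1 input and 1 H3K9me2 library, and Ctrl gave 2 inputs, 1 H3K9me2 library and 1 H3K4me3 library, which is titled wild type and carries the Ctrl genotype label. The members are regions of these libraries and not replicates of a condition, so no test between groups was made and shares carry exact 95% binomial intervals (Clopper-Pearson) that cover counting error only.

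An input library commonly has no antibody enrichment, and its peaks then mark where fragments collect for other reasons. How the inputs of this study were prepared is not given in the sources used. Open promoters give up DNA readily. Tandem repeats, ribosomal DNA and other sequences with many near-identical copies gather reads from all the copies at the few places where the assembly holds them, and such regions recur between experiments and are often collected in exclusion lists. H3K4me3 is a mark of active promoters, and H3K9me2 is a repressive mark that PHF2 is described as removing.

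Sequences from both kinds of region are shown first, because members lay at promoters and, in the case shown first, in tandemly repeated sequence. They are RefSeq promoter windows of GRCm38.p6, 250 bases before to 50 after an annotated start, on the gene's own strand. The first is the window of the long noncoding RNA gene Gm40237 (chr4:118547156-118547455, plus strand), which overlaps a member with no H3K4me3 peak. Its capitals mark a word of 20 bases that occurs 7 times, each 44 bases after the last.
Gm40237: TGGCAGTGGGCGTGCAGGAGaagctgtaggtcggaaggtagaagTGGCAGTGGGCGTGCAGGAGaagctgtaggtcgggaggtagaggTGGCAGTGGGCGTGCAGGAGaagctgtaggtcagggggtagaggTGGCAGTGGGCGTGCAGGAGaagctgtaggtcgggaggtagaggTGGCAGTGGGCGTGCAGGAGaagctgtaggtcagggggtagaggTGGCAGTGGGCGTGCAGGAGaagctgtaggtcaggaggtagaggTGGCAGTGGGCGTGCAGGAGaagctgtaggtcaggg
The next 3 windows belong to members with an H3K4me3 peak at a gene end, and their capitals mark CG dinucleotides: Vmn2r29 (chr7:7278240-7278539, minus strand), a vomeronasal receptor gene; Tmem267 (chr13:119488223-119488522, plus strand), a transmembrane protein gene; and Hjurp (chr1:88277530-88277829, minus strand), which encodes a chaperone of the centromeric histone CENP-A. They are not typical of gene-end members. All 3 had a peak in each of the 4 lists other than the Ctrl inputs, which held for 16 of 139 gene-end members (11.5%).
Vmn2r29: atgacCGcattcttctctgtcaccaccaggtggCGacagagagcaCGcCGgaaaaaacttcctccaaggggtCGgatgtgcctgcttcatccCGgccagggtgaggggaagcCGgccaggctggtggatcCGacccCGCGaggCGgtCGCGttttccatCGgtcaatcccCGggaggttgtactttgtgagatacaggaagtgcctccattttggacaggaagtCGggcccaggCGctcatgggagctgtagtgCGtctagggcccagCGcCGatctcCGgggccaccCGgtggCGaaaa
Tmem267: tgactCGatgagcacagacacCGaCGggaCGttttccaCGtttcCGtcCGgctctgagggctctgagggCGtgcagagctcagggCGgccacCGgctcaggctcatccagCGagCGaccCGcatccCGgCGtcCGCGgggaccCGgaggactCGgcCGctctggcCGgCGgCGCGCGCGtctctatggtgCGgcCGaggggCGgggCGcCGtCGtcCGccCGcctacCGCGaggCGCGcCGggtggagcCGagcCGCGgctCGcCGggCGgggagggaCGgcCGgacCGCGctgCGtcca
Hjurp: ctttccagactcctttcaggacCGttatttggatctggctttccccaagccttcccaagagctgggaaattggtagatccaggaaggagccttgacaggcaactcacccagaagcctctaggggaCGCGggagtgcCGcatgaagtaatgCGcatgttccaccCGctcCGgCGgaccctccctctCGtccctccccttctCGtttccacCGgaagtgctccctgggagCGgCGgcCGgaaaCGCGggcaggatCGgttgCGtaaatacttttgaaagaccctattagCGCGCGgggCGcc
A run of this kind was rare among promoters. Identity of 80% or more between a window and itself moved by 10 to 100 bases was found in 1 of 136 windows under a member (0.735%, interval 0.0186 to 4.03), in none of 956 under another Ctrl input 1 peak and in 16 of all 31365 windows (0.051%).

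The fold of a peak is the authors' own value, equal to the fragments piled up at the summit plus 1 over the local background plus 1. Summit pileups were recovered from the fold and the p-value. Background coverage over the genome, which stands for relative depth, was 0.371 fragments per position in CKO input and 0.544 in CKO H3K9me2, and in Ctrl 0.294 and 0.292 in the inputs, 0.391 in H3K9me2 and 0.482 in H3K4me3. Median pileups were 6 in both Ctrl inputs, so most input peaks rest on few fragments. Markers of the tissue were read from H3K4me3 at gene ends. Of 12 skeletal muscle markers 9 had a peak, against 2 of 4 endothelial, 2 of 4 blood and immune and 0 of 4 fibroadipogenic markers. The muscle markers Acta1, Ckm and Pvalb had none. Over all coding genes on chromosomes 1 to 19 the share was 12408 of 20665 (60%). Lists this short therefore do not establish the cell types of the tissue.

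Members were chosen by their overlap with Ctrl input 2, that is, by peak calls in both Ctrl inputs, so their values in the 2 control inputs are a description. Members had a median width of 442 bp (305 to 4057 bp), against 365 bp (303 to 1133 bp) for the 2710 other Ctrl input 1 peaks. The median fold of members was 5.46 in Ctrl input 1 (2.07 to 30.9) and 5.15 in Ctrl input 2 (2.16 to 32.1), and that of the other peaks was 4.99 in Ctrl input 1 (1.27 to 11.1). The 20 highest Ctrl input 1 peaks by fold were all members, as were 38 of the highest 50 and 85 of the highest 300. A fold over 10 was listed for 26 members, 25 of them away from gene ends, and for 2 other peaks. Members made up 9.64% of the Ctrl input 1 peaks (interval 8.6 to 10.7) and their partners 22.7% of the 1277 Ctrl input 2 peaks. Most pairs shared much of the shorter peak, while their summits were often farther apart. The shared stretch covered 50% or more of the shorter peak in 244 of 289 pairs, and the summits lay within 100 bp of each other in 145. Just inside the rule were members sharing 5 bp (chr15:102136202-102136524, near Spryd3), 8 bp (chr2:90940266-90940634, near Celf1) and 8 bp (chr3:123508537-123508934, near Prss12). Just outside were peaks with a gap of 0 bp (chr10:30216749-30217057 and chr10:54075535-54075853) and of 8 bp (chr19:21928427-21928762). Folds on both sides of that line were alike, 5.46, 4.33 and 4.5 inside and 5.04, 5.78 and 3.57 outside.

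The other 4 lists took no part in the choice. Members recurred in each of them more often than the rest of the Ctrl input 1 peaks. A CKO input peak overlapped 216 members (74.7%, interval 69.3 to 79.6), against 42.7% of non-members (40.8 to 44.6) and 45.8% of all Ctrl input 1 peaks. For CKO H3K9me2 it was 167 members (57.8%, 51.9 to 63.5), against 28.1% of non-members (26.4 to 29.9) and 31% of all. For Ctrl H3K9me2 it was 99 members (34.3%, 28.8 to 40.0), against 9.08% of non-members (8.02 to 10.2) and 11.5% of all. In the H3K4me3 list 196 members had a peak (67.8%, 62.1 to 73.2), against 46.5% of non-members (44.6 to 48.4) and 48.5% of all. The 47 members found in all 4 other lists were 16.3% of members, against 33 non-members (1.22%) and 2.67% of all. In none of the 4 were 9 members (3.11%), against 751 non-members (27.7%) and 25.3% of all. None of these intervals overlapped.

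Height differed as well, with a median pileup of 8 fragments for members and 6 for non-members. Among peaks of at most 10 fragments, CKO input peaks overlapped 65.1% of 189 members (57.8 to 71.9) and 42.1% of 2643 non-members (40.2 to 44.0). Ctrl H3K9me2 peaks overlapped 21.2% (15.6 to 27.7) and 8.7% (7.65 to 9.84) of these. Members thus recurred more often within that range too, but heights inside it were not matched. Over all peaks members were also wider (median of 442 bp against 365 bp for non-members). What height or width contributed was not tested. Seen from the other side, members were a small share of each list. They accounted for 216 of the 10683 CKO input peaks (2.02%), 167 of 12508 CKO H3K9me2 peaks (1.34%), 100 of 3595 Ctrl H3K9me2 peaks (2.78%) and 197 of 16066 H3K4me3 peaks (1.23%). With each list shortened by fold to the 3595 peaks of the shortest, CKO input held 42.2% of members (36.5 to 48.1), against 18.1% of non-members (16.6 to 19.6). CKO H3K9me2 held 29.1% of members (23.9 to 34.7), against 8.41% of non-members (7.4 to 9.52), and the Ctrl H3K9me2 shares stood as above. For H3K4me3 the shares were 17% of members (12.8 to 21.8) and 14.2% of non-members (12.9 to 15.6), whose intervals overlap. List length and depth differ between CKO and Ctrl, and with 1 library each they cannot be told apart from genotype.

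Members lay at gene ends about as often as the other input peaks. The centre of 139 members (48.1%, 42.2 to 54.0) was within 2 kb of either end of a protein-coding gene, against 44.6% of non-members (42.7 to 46.5) and 44.9% of all Ctrl input 1 peaks. Of the 82 members left when both Ctrl input peaks had q of 1e-05 or less, 11 (13.4%) were at a gene end. That share was not computed for all 320 Ctrl input 1 peaks at this cut, so it does not compare members with other peaks. Of the full set, the other 150 members lay away from gene ends, 49 in gene bodies and 101 between genes. Over all members, these groups differed in their partners. Of gene-end members 133 of 139 (95.7%) had an H3K4me3 peak, against 86.7% of gene-end non-members. CKO H3K9me2 held 32.4% of gene-end members (24.7 to 40.8), against 21.9% of such non-members (19.6 to 24.4). Ctrl H3K9me2 held 16.5% (10.8 to 23.8), against 5.96% (4.69 to 7.45). Of members away from gene ends 81.3% were in CKO H3K9me2 (74.2 to 87.2), 50.7% in Ctrl H3K9me2 (42.4 to 58.9), 80.7% in CKO input (73.4 to 86.7) and 42.0% in H3K4me3 (34.0 to 50.3). Non-members away from gene ends reached 33.1%, 11.6%, 32.6% and 14.2% in those lists. All 4 other lists held 31 of the 150 members away from gene ends (20.7%) and 6 of 1502 such non-members (0.399%). With q of 1e-05 or less in both Ctrl inputs, the H3K9me2 contrast between the places was not kept. CKO H3K9me2 then held 10 of 11 gene-end members (90.9%, 58.7 to 99.8) and 84.5% of 71 members away (74 to 92). Ctrl H3K9me2 held 8 of 11 (72.7%, 39 to 94) and 60.6% (48.3 to 72).

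**Figure D1:**
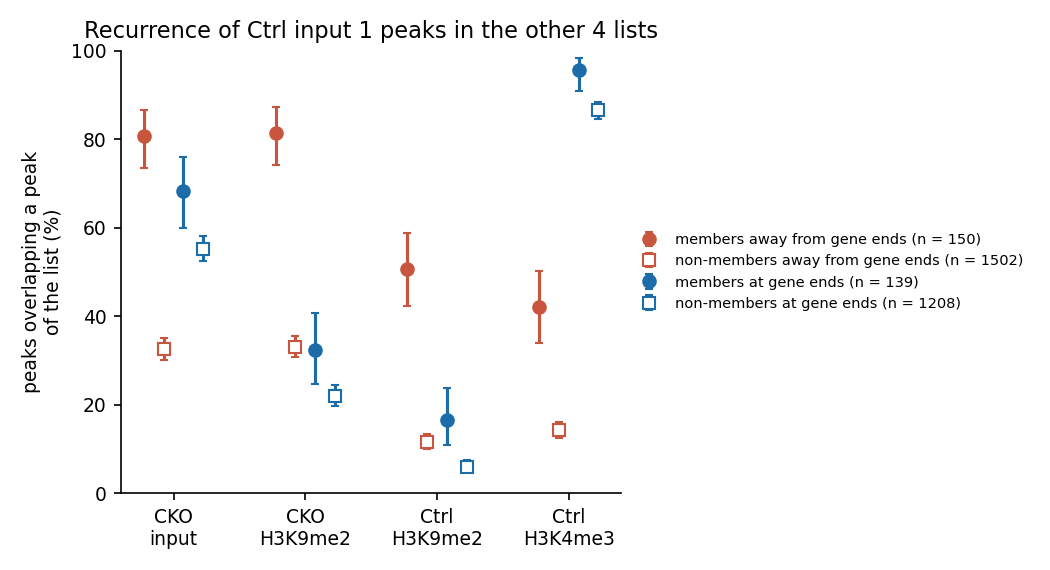
Percent of Ctrl input 1 peaks that overlap a peak of each other list, with exact 95% binomial intervals, for members (filled circles) and non-members (open squares) away from gene ends and at them. Members away from gene ends stand at 80.7% in CKO input and 81.3% in CKO H3K9me2, against 32.6% and 33.1% of such non-members, and gene-end peaks of both kinds are mostly in H3K4me3.

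Most gene-end members lay near an annotated start. Where the promoter table holds windows (none on chromosome 18), the Ctrl input 1 summit was within 1 kb of a start for 112 of 137 gene-end members (81.8%) and for 77.5% of 1162 gene-end non-members. Those summits lay at a median of 109 bp downstream of the start for members (quartiles of -19 and 273 bp) and of 125 bp for non-members. The split by coding gene ends is not a split by promoter. Of 148 members away from gene ends, 13 (8.78%) also had the summit within 1 kb of a start, against 8.22% of 1459 such non-members, and 11 of the 13 had H3K4me3. The member at a start of Abcg2 (chr6:58640344-58640787), a transporter gene, is one of them, with a fold of 17 in H3K4me3 and of 6.88 and 6.63 in the Ctrl inputs. Of the 133 members at gene ends with H3K4me3, 113 were wholly inside the H3K4me3 peak, whose median width was 955 bp. Their input pileups were small beside the mark. Gene-end members had a median pileup of 7 fragments in Ctrl input 1 and, where an H3K4me3 peak was present, of 88 fragments in that library. The H3K4me3 fold was over 1.5 times the mean input fold in 122 of these 133 members and in 17 of 63 members away from gene ends that had an H3K4me3 peak.

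The 136 RefSeq promoter windows under a member, from 124 genes, were rich in CpG, and 126 of them lay under gene-end members and 10 under members away from gene ends. Their median GC content was 68.5%, against 65.3% for 956 windows under other Ctrl input 1 peaks and 53.0% for all 31365 windows. The median number of CpG dinucleotides per 300 bases was 29 under members, 26 under other input peaks and 7 over all windows. A ratio of observed to expected CpG above 0.6 with GC above 50% was found in 91.9% of windows under members (86.0 to 95.9), in 83.2% under other input peaks (80.6 to 85.5) and in 33.9% of all. Under gene-end members alone it was 93.7% (87.9 to 97.2), and under members away from gene ends 7 of 10. Motifs were searched on both strands. The GC box GGGCGG was present in 82.4%, 77.0% and 36% of these groups of windows. It contains a CG, as does the ETS motif. That motif, CCGGAAG, was present in 17.6%, 21.2% and 9.0%, and the TATA box TATAAA in 1.47%, 3.45% and 13.6%. CCAAT was present in 28.7%, 33.3% and 37.3%.

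**Figure D2:**
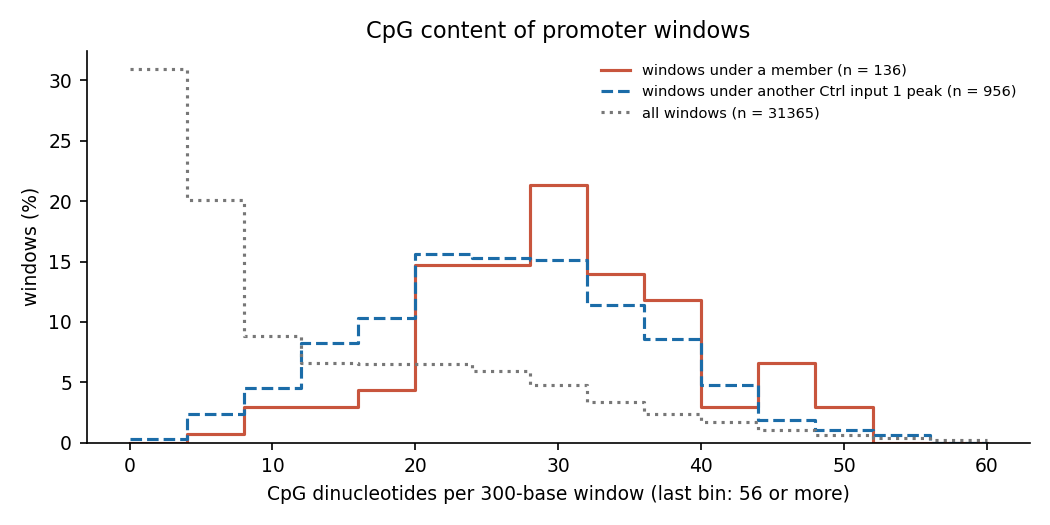
Distribution of CpG dinucleotides per 300-base RefSeq promoter window (GRCm38.p6) as a percent of the windows, for windows under a member, under another Ctrl input 1 peak and over the whole table. Windows under members centre on 29 and all windows on 7.

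Vmn2r29 carried the highest member at a gene end (chr7:7277875-7278345). Its fold was 18.3 in CKO input, 17.2 in CKO H3K9me2, 12.4 in Ctrl H3K9me2 and 16.2 in H3K4me3, and 19.2 and 13.8 in the Ctrl inputs, so the H3K4me3 value lay within the range of the inputs. At Hjurp (chr1:88277204-88277744) the H3K4me3 fold of 22.3 on 469 fragments did stand above the inputs, which had 7.92 in CKO and 7.61 and 5.78 in Ctrl. The H3K9me2 folds there, 9.27 in CKO and 8.44 in Ctrl, were above the inputs too. At Zfp978 (chr4:147124672-147125025), a zinc finger gene of a chromosome 4 cluster, the fold was 9.4 in CKO input, 13.1 in CKO H3K9me2 and 16.1 in H3K4me3, and 9.65 and 6.45 in the Ctrl inputs. Tmem267 (chr13:119488413-119488900) had 10.3 in CKO input and 12.1 in H3K4me3, and 6.54 and 7.22 in the Ctrl inputs. Pum2 (chr12:8673994-8674582), which encodes a Pumilio RNA-binding protein, had 4.57 in CKO input and 10.1 in H3K4me3, and 8.19 and 4.96 in the Ctrl inputs. Tcaim (chr9:122805518-122805936) had an H3K4me3 fold of 16.5, with 7.13 and 6.02 in the Ctrl inputs. At Lars2 (chr9:123461808-123462156), the mitochondrial leucyl-tRNA synthetase gene, the H3K4me3 fold of 7.14 on 10 fragments lay below the 9.68 of CKO input and the 8.65 and 11.7 of the Ctrl inputs. At the gene models Gm51573, LOC100504180 and Gm51572 the H3K4me3 folds of 4.05, 6.13 and 3.95, on 5, 13 and 6 fragments, were likewise below all 3 inputs. These 5 of the 10 highest gene-end members thus differed from the other 5, whose H3K4me3 fold was above all 3 inputs.

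Only 6 gene-end members lacked H3K4me3. They lay at Sfi1, Sertm1, Akain1, Prp2, Klhl1 and Mael, with folds of 3.73 to 6.18 in Ctrl input 1. Their pileups were 27 fragments at Sfi1 and 4 to 7 at the others.

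Members away from gene ends held the highest values. Of the 15 highest members by the mean of the Ctrl input folds, 14 lay away from gene ends and 9 were in all 4 other lists, with 14 in CKO input, 13 in CKO H3K9me2 and 10 in Ctrl H3K9me2. The highest (chr9:35305223-35305595), inside the noncoding gene model Gm33838, had folds of 32.8 in CKO input, 30.3 in CKO H3K9me2, 27.7 in Ctrl H3K9me2 and 30.8 in H3K4me3, and 30.9 and 32.1 in the Ctrl inputs. The next, inside Zc3h7a (chr16:11143899-11144312), a CCCH zinc finger gene, had 29.6, 27.8, 25.2 and 22.4 in those lists and 26.8 and 27.2 in the Ctrl inputs. Between genes on chromosome 3 (chr3:5860367-5860821) the values were 30.2, 25.7, 23.0 and 20.2, and 27.0 in both Ctrl inputs. In the last of these the fold of each antibody library was below that of each input. Inside Filip1l and Cmss1 (chr16:57391202-57391694) it was 29.9 in CKO input, 25.9 in CKO H3K9me2, 22.0 in Ctrl H3K9me2 and 21.5 in H3K4me3, and 27.0 and 26.7 in the Ctrl inputs. On chromosome 11 (chr11:109011644-109012111) it was 25.9, 23.0, 19.8 and 19.7 in those lists, and 25.4 and 25 in the Ctrl inputs. The antibody libraries were again below the inputs at both. Inside Jarid2 (chr13:44869565-44869974), whose product is a cofactor of Polycomb repressive complex 2, the fold was 25.9 in CKO input, 23.5 in CKO H3K9me2, 17.9 in Ctrl H3K9me2 and 12.5 in H3K4me3, and 22.6 and 22.4 in the Ctrl inputs. H3K4me3 had the lowest fold there, as it did inside Cdk8 (chr5:146260982-146261366), where it was 8.41 against 20.1 and 21.0 in the Ctrl inputs. The member inside Aida and near Brox (chr1:183299192-183299604) had 22.0 in CKO input, 22.0 in CKO H3K9me2 and 21.0 in Ctrl H3K9me2, and 19.6 and 20.2 in the Ctrl inputs, and no H3K4me3 peak.

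Ranks 10 to 15 behaved differently from these. Near Tmem196 (chr12:120028666-120029013) the fold was 22.6 in CKO input, and 21.8 on 89 fragments and 13.9 on 27 fragments in the Ctrl inputs, with no peak of either mark. On chromosome 18 (chr18:90602203-90602633) it was 22.3 in CKO input and 15.3 in CKO H3K9me2, and 19.8 on 77 and 14.3 on 32 fragments in the Ctrl inputs. Between genes and 124 kb from an end of Fgf14, a fibroblast growth factor gene, lay another member (chr14:124801573-124802240). Its fold was 16.3 in CKO input and 9.52 in CKO H3K9me2, and 18.1 on 85 and 12.7 on 31 fragments in the Ctrl inputs. In each of ranks 10 to 15 Ctrl input 1 was the higher of the Ctrl inputs. The member on chromosome 16 (chr16:98107452-98107764) had folds of 20.6 on 60 and 12.5 on 23 fragments in the Ctrl inputs and was in none of the other 4 lists.

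The member over the repeat of Gm40237 shown above (chr4:118547217-118548580) was 1364 bp wide. Its fold was 13.1 in CKO input, 10.1 in CKO H3K9me2 and 10.1 in Ctrl H3K9me2, and 13 on 78 and 11.2 on 39 fragments in the Ctrl inputs. It was 1 of the 10 highest members away from gene ends without H3K4me3, with those of ranks 8, 10, 11, 12 and 14. The other 4 were on chromosomes 2, 6 and 8, with folds of 10.7 to 16.3 in Ctrl input 1 and of 9.49 to 12.4 in Ctrl input 2, and all of them were in CKO input and CKO H3K9me2. Their fold in CKO H3K9me2 was 6.28 to 15.4.

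**Figure D3:**
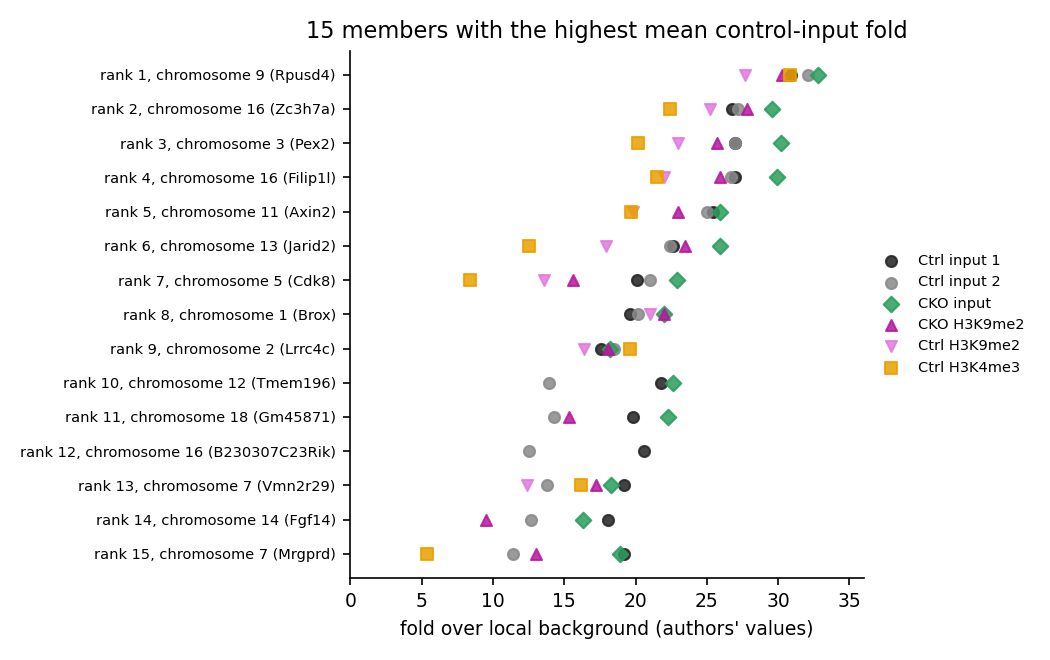
Fold over local background, as the authors give it, of the 15 members with the highest mean of both Ctrl inputs, labelled by rank, chromosome and nearest coding gene end, with 1 symbol per library and none where that list has no overlapping peak. In ranks 1 to 9 the Ctrl inputs lie close together, and in ranks 10 to 15 Ctrl input 1 lies to the right of Ctrl input 2.

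Fold and pileup told different things at the tallest members. The member on chromosome 2 (chr2:98666550-98667325), between genes and far from Lrrc4c, piled up 59347 fragments in CKO input, 10370 in CKO H3K9me2, 2985 in Ctrl H3K9me2 and 10584 in H3K4me3, and 54858 and 50479 in the Ctrl inputs. Its fold was 16.4 to 19.6 over all 6 libraries. The member on chromosome 14 (chr14:19416878-19419273) piled up 17076 fragments in CKO input, 1566 in CKO H3K9me2, 416 in Ctrl H3K9me2 and 1562 in H3K4me3, and 14983 and 12531 in the Ctrl inputs, with a fold of 12.7 to 19.4. These piles were low in the antibody libraries, although those libraries had the higher coverage. Of Ctrl input 1 peaks with 1000 fragments or more, 16 of 19 were members, all of them away from gene ends, and of those with 100 or more, 26 of 30.

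For the 19 members with 400 fragments or more, each pileup was divided by the background coverage of its library and set against Ctrl input 1. The median log2 ratio was 0.04 for CKO input (19 members, -0.22 to 0.40), -5.25 for CKO H3K9me2 (16 members, -5.55 to -0.81), -5.63 for Ctrl H3K9me2 (8 members, -6.79 to -1.35), -5.35 for H3K4me3 (15 members, -5.84 to -2.23) and -0.54 for Ctrl input 2 (19 members, -0.65 to -0.11). All 3 antibody libraries lay below all 3 inputs at each of these members where they had a peak. Members with no peak in a list have no ratio, so the antibody medians are over the members that were called there. Of the 19, 14 lie close together at the start of chromosome 9 and cannot be taken as independent of each other.

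**Figure D4:**
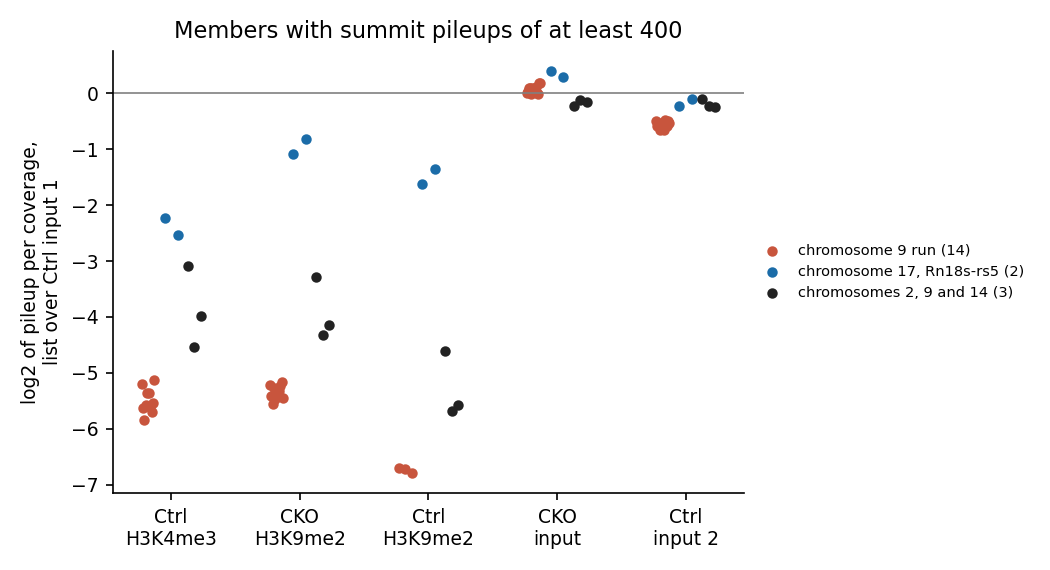
Log2 of summit pileup per background coverage in each list over Ctrl input 1, for the 19 members with at least 400 fragments in Ctrl input 1, coloured by the run or region they lie in. CKO input and Ctrl input 2 stay between -0.65 and 0.40, and the 3 antibody libraries lie between -6.79 and -0.81.

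Some members lay close together, though no comparison with other peaks was made. Within 200 kb of the next, 51 of 289 members formed 10 runs of 3 or more, 14 of them in 1 run. That run was at the start of chromosome 9 (chr9:3000074-3038278), where the members had folds of 2.07 to 10.8 on 950 to 9521 fragments in Ctrl input 1. All 14 were in CKO input, 11 in CKO H3K9me2, 3 in Ctrl H3K9me2 and 10 in H3K4me3. Its nearest coding gene, Alkbh8, lies outside it. A run on chromosome 6 (chr6:47673282-47772533) had 7 members of 27 to 57 fragments, all of them in CKO input and H3K4me3, 2 in CKO H3K9me2 and 1 in Ctrl H3K9me2. The H3K4me3 fold of these 7 was 4.2 to 9.24 on 91 to 336 fragments, and their fold in Ctrl input 1 was 3.46 to 7.44. A run at Sfi1, a centrosome gene (chr11:3127050-3193699), had 6 members, of which 5 were in CKO input, 6 in CKO H3K9me2, 5 in Ctrl H3K9me2 and 1 in H3K4me3. On chromosome 4, 3 runs between 145585219 and 147359941 held 11 members among zinc finger genes such as Zfp600, Zfp978 and Zfp992, all 11 of them in CKO input and in CKO H3K9me2. The run at Tmem267 (chr13:119488413-119601676) had 4 members, all in CKO input and both H3K9me2 lists. In contrast, the run at Stk33, Rpl27a and Denn2b (chr7:109438849-109703953) lay at gene ends, with 3 members in H3K4me3 and none in either H3K9me2 list. Zinc finger genes of such clusters can be similar in sequence, which was not measured here, and no source used here says how reads that match several places were treated.

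The nearest coding gene was an uncharacterised Gm or LOC model for 30 of 150 members away from gene ends (interval 13.9% to 27.3%), against 4.59% of such non-members (3.59 to 5.78). Pseudogenes overlapped 15 members (5.19%, 2.93 to 8.42) and 1.99% of non-members (1.5 to 2.59). Long noncoding RNA genes overlapped 11.4% of members (7.99 to 15.7) and 10.6% of non-members (9.49 to 11.8), whose intervals overlap. The widest member (chr17:39843101-39847157, 4057 bp) covered Rn18s-rs5, an 18S ribosomal RNA related sequence. Its fold was 2.54 in CKO input, 3.24 in CKO H3K9me2, 2.69 in Ctrl H3K9me2 and 3.22 in H3K4me3, and 2.42 and 2.41 in the Ctrl inputs. A second member beside it (chr17:39848197-39848663) had 2.13 and 2.27 in the Ctrl inputs and met the same H3K9me2 peaks. These and 4 members of the chromosome 9 run were the only members with a fold under 3 in Ctrl input 1, with pileups of at least 400 fragments each. Another of the 5 widest members lay at Duxf3, a double homeobox gene (chr10:58231228-58232801), with Ctrl input folds of 5.23 and 5.68. A further one lay beside it at the gene model LOC100504180 (chr10:58223893-58225445), with 7.64 and 8.13, and both were in all 4 other lists.

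A member on chromosome 1 (chr1:171063929-171066151, 2223 bp) near Fcgr3 overlapped 4 transfer RNA genes, n-TDgtc3, n-TEctc5, n-TGtcc1 and n-TLcag6, and Mir6546. Its fold was 4.41 in CKO input, 5.27 in CKO H3K9me2, 3.93 in Ctrl H3K9me2 and 8.76 in H3K4me3, and 4.67 and 3.99 in the Ctrl inputs. It was the only member over transfer RNA genes (0.346%, 0.00876 to 1.91), and no non-member overlapped one (0.0 to 0.136), so the intervals overlap. Genes of miRNAs overlapped 3 members (1.04%, 0.215 to 3.0) and 3 non-members (0.111%, 0.0228 to 0.323), whose intervals overlap too. The other members of these 3 were at Mir7666 and Mir7672. The mature miRNAs of Mir6546 in RefSeq are shown with the seed, bases 2 to 8, in capitals, because they are the only ones in the table that lie in this member.
mmu-miR-6546-5p: aGGCGCCUcugagcuugugcuugu
mmu-miR-6546-3p: gAGCGAAGcccaagcgccaga

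Few coding genes had a member. Of 20665 coding genes on chromosomes 1 to 19, 203 (0.982%) had a member in the body or within 2 kb, 160 (0.774%) had one within 2 kb of an end, and 2070 (10%) had any Ctrl input 1 peak there. No member touched any of 17 sarcomere genes, 12 myogenic regulators, 14 genes of H3K9 methylation and HP1, 65 replication histone genes or 102 respiratory chain genes. At 0.982% per gene, lists of these sizes would hold few members or none. Ctrl input 1 peaks that were not members lay at Tpm1, a tropomyosin gene, at Mef2a, a muscle transcription factor gene, at Kdm3b, an H3K9 demethylase gene, and at 10 respiratory chain genes. Another tropomyosin gene, Tpm4, which is in none of the lists and was picked after its values were seen, had a member at one end (chr8:72135085-72135609), with a fold of 9.19 in H3K4me3 and of 4.25 and 5.2 in the Ctrl inputs. Of 79 ribosomal protein genes 2 had a member. At Rpl23 (chr11:97781829-97782337) the fold was 5.7 in CKO input and 14 in H3K4me3, and 5.71 and 5.89 in the Ctrl inputs. At Rpl27a (chr7:109518962-109519287) it was 10.4 in H3K4me3, and 4.64 and 5.15 in the Ctrl inputs. Of 388 zinc finger genes 4 had a member, Zfp382, Zfp644, Zfp978 and Zfp992, which is a share close to that of all genes.

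Folds of the 2 Ctrl inputs tracked each other among members away from gene ends and little among gene-end members. The Pearson correlation of log2 fold across members was 0.90 (Spearman 0.76, 150 members) away from gene ends and 0.41 (0.17, 139 members) at them. Against CKO input the Ctrl input 1 values were 0.94 (121 members) and 0.53 (95 members), against CKO H3K9me2 0.83 (122) and 0.53 (45), against Ctrl H3K9me2 0.89 (76) and 0.79 (23), and against H3K4me3 0.63 (63) and 0.01 (133). In the same order, Spearman values were 0.87, 0.69, 0.79 and 0.58 away from gene ends and 0.24, 0.13, 0.64 and 0.05 at them. Gene-end folds in Ctrl input 1 spanned a narrow range, with quartiles of 4.53 and 5.84, against 4.89 and 8.24 away. These describe regions of the same libraries, many of them close together or on few fragments, and carry no test. Summits of the Ctrl inputs were a median of 43.5 bp apart away from gene ends and 180.0 bp apart at them, and within 100 bp in 100 of 150 and in 45 of 139 pairs. Pileups were smaller at gene ends, with medians of 7 fragments there and 14 away.

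**Figure D5:**
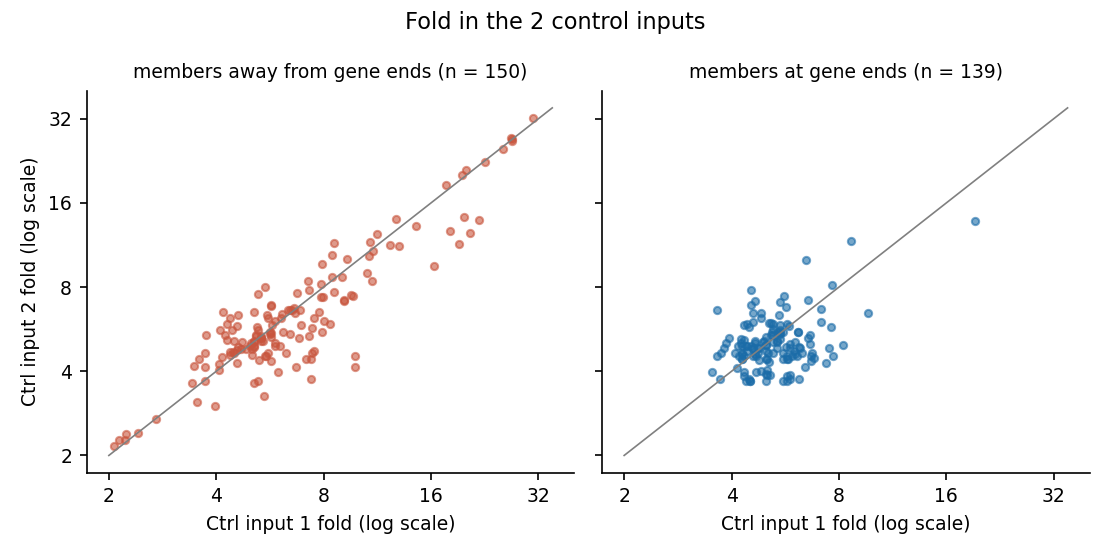
Fold of each member in Ctrl input 1 (x axis) and Ctrl input 2 (y axis), both on log scales, for 150 members away from gene ends and 139 at gene ends, with the line of equal fold. Points away from gene ends follow the line up to folds of 30.9 and 32.1, and points at gene ends form a cloud mostly below 8.

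Finally, 9 members were in none of the 4 other lists. Besides the chromosome 16 member, their Ctrl input 1 folds were 4.28 to 7.52 on 5 to 15 fragments, beside a median fold of 5.46 and a median pileup of 8 over all members. They included a second member near Hjurp (chr1:88286804-88287223), with 7.52 and 6.22 in the Ctrl inputs, and members at the ends of Sertm1 and Prp2.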

How the data were processed

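Peak lists of 6 CUT&RUN libraries from mouse gastrocnemius muscle were used, grouped by the labels' genotypes and titles. The submitters' processing notes name Bowtie2, MACS2 and the mm10 build. Their versions and roles, the preparation of input, any use of input as peak-calling control and the number of animals are not given in the sources that were used. For each peak the authors deposited a position, a fold (a ratio over local background), p-values and q-values as −log10, a score, and the summit's offset in bp. The deposited score was not used for any value.

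Peaks on chromosomes 1 to 19 were read, overlap meant 1 bp or more, and a position at a gene end meant a peak centre within 2 kb of either end of a protein-coding gene in the RefSeq table of GRCm38.p6, which mm10 follows; it gives no strand. Where several peaks of a list overlapped a member, the highest was taken. The summit pileup was solved from fold and p-value as a Poisson upper tail, and 100.0% of the peaks in each list gave a whole number within 0.01%. The lowest local background in a list was taken as its genome-wide coverage. Overlap and pileup recovery were tested on simulated peaks. Promoter windows and miRNA sequences are from RefSeq, GRCm38.p6, and the window table was searched for chromosomes other than 18.

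The members, gene lists and alternatives were chosen with earlier results of these data known. Named members followed a rule: the 15 highest by mean Ctrl input fold, the 10 highest at gene ends with H3K4me3, the 10 highest away without it, the 5 lowest, the 5 widest, the 3 nearest either side of the overlap threshold, and up to 4 per gene list. Runs of members, transfer RNA genes, Abcg2, the 19 tallest members and those in no other list were added after their values were seen. No test was used. No pseudocount was added beyond the 1 that the authors' fold already holds in pileup and background. The software was matplotlib 3.10.9, scipy 1.17.1, pandas 2.3.3, numpy 2.4.6 and Python 3.11.15.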

Additional observations from a re-analysis of the deposited data

Results flagged for a closer look

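Recurrence between the Ctrl inputs was also present outside chromosomes 1 to 19, in sequences that the comparisons leave out. On chromosomes X and Y, 15 of 72 Ctrl input 1 peaks overlapped a Ctrl input 2 peak, and 2 of them were in all 4 other lists. On unplaced and unlocalised sequences 32 of 45 did, with folds up to 16.6. Of these, 30 lay among the 35 peaks of the unplaced sequence JH584304, where folds ran from 1.46 to 10.9, the highest pileup was 2200 fragments and 5 peaks were in all 4 other lists. The share on chromosomes 1 to 19 was 289 of 2999.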

How the results depend on the processing

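Over 16 shares and medians, 94 of 144 alternative values stayed within the 95% interval of the reported value. Requiring q of 1e-05 or less in both Ctrl inputs left 82 members, gave 25.6% of Ctrl input 1 peaks recurring, 93.9% of members in CKO input, 85.4% in CKO H3K9me2, 62.2% in Ctrl H3K9me2, 61% in H3K4me3, 40.2% in all 4 and 13.4% at a gene end, and medians of 468 bp, 7.88 (Ctrl input 1 fold) and 7.47 (Ctrl input 2 fold). An overlap of 50% of the shorter peak left 8.14% of Ctrl input 1 peaks recurring. Starting from Ctrl input 2, 22.7% recurred at a median width of 407 bp. With the 4 other lists at equal length the shares were 42.2% in CKO input, 29.1% in CKO H3K9me2, 17% in H3K4me3 and 4.5% in all 4. Without either Ctrl input, when all peaks of the remaining one take the members' place, they were 45.8% to 48.5% in CKO input, 30.1% to 31% in CKO H3K9me2, 11.5% to 13.7% in Ctrl H3K9me2, 48.5% to 55.2% in H3K4me3 and 2.67% to 4.31% in all 4. Counting 1 member per run within 200 kb, an alternative chosen after seeing the data, gave 54.2% at a gene end. The causes were not tested, beyond fewer peaks or other members by construction. No paired analysis was possible because the labels number only the Ctrl inputs and each other group is 1 library, so that no groups share 2 replicate numbers. Depth limits the low members: with 4 to 10 fragments at a summit, absence from a list does not show absence of signal.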
